A study of Rattus norvegicus with 24 samples.

Results

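The kidney of the SS-13BN/Mcw rat was compared between overnight and 3 days after a change of salt in separate sets of rat pairs, and the value compared is the log ratio of each gene at 3 days minus its log ratio overnight. The members are the arrays titled 13LS vs 13HS at those times, 12 of the 24 arrays of the series, which make up 6 of its 12 rat pairs. Each array carried total RNA of 1 low-salt and 1 high-salt rat of the strain in Cy5 and Cy3, and each pair was hybridised on 2 arrays with the dyes exchanged. The other 12 arrays hold the same design in the SS rat. They are used to show where SS-13BN/Mcw differs, and they also enter the fits that estimate the spread between pairs, except where a fit of the 6 SS-13BN/Mcw pairs alone is named. The low-numbered rats 1, 2 and 3 were each paired with a rat numbered 4, 5 or 6 overnight, and again with a rat numbered 7, 8 or 9 at 3 days. The titles do not state which rat of a pair had which salt intake, and the labels give the tissue as rat kidney with no region.

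The Dahl SS rat develops hypertension and kidney injury when salt intake is raised, and SS-13BN/Mcw carries a chromosome of the Brown Norway rat on that background, which lessens the rise in pressure. All rats of both strains thus share the SS background outside that chromosome. Salt is filtered in the glomerulus and mostly taken back by the proximal tubule and the thick ascending limb, while the collecting duct sets the final amount through the epithelial sodium channel under aldosterone. The enzymes Hsd11b1 and Hsd11b2 turn over glucocorticoids in opposite directions, and Hsd11b2 keeps glucocorticoids off the aldosterone receptor in the collecting duct. The interstitium around the tubules holds collagens, proteases and their inhibitors, whose genes are much studied in kidneys under salt load.

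All values are log ratios as in the deposited table, which states neither the log base nor the numerator. No fold is therefore given, and a higher value at 3 days means only that the log ratio moved to the positive side. A pair value is the mean of its 2 arrays after each array was centred on its median. Each of the 12 arrays gave values for between 919 and 1412 probes, and precision is limited by how few arrays there are. Testing needed values in 2 or more of the 3 pairs of every group compared. The p-values rest on the spread from one rat pair to the next. Where the low-numbered rats were taken as linked, they rest on the spread of the differences within those rats. In a fit of single arrays, both arrays of a pair enter, with a correlation within the pair of 0.391. In total RNA of a tissue, fewer cells of a type and less RNA per cell cannot be told apart. Nephron segments were represented by their markers: 17 genes of the proximal tubule, 5 of the thick ascending limb and distal tubule and 7 of the collecting duct were tested. No marker of the glomerulus or of leukocytes was tested, although 3 of each had some value.

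The leading genes were picked by p among genes whose pair values at the 2 times did not overlap. Their lack of overlap was thus set by the choice and is no support for them. Hpd (amino acid breakdown), Scnn1a (alpha subunit of the epithelial sodium channel), Gcgr and Hsd11b2 led the genes with higher log ratios at 3 days. Hsd11b1, Timp1, Clu and Tubb5 led those with lower ones. Of the 24 leading genes, 17 had a mean nearer to 0 at 3 days than overnight, against 562 (62.7%) of all 897 probes. In the other 7, Hsd11b1 among them, the mean was farther from 0. By limma with all pairs taken as independent, 0 of 897 probes (0%) passed an adjusted p of 0.05, and the smallest adjusted p was 0.276. At an unadjusted p of 0.05, 101 probes (11.3%) passed, 56 higher and 45 lower at 3 days, where 44.85 would by chance. With the low-numbered rat as a replicate block, which compares the 2 times within each linked rat, 10 probes (1.11%) passed, 1 higher and 9 lower. In a probe with values in all pairs, such as Hpd, the block leaves the difference unchanged and alters only its error. With or without the block, the low-numbered rats are then on both sides of the subtraction, so the contrast is between the high-numbered rats of the 2 times. The probe that rose was Hpd. The probes that fell with the block were Mgp, Fabp4, Tagln, Hsd11b1, Ctxn1, Spink1l, C1s, Clu and 1 probe with no gene name. These 10 were picked out after their values were seen. Arrays scaled to one spread gave 32 probes with the block (11 higher, 21 lower) and quantile normalization 22 (6 higher, 16 lower), while 1 passed in a fit of the 6 SS-13BN/Mcw pairs alone and 0 with slide number as a covariate (smallest adjusted p 0.0645). A fit of single arrays with the rat pair as a random block called 8 probes, Dnase1, Hpd, Gcgr, Pdgfa and Hsd11b2 higher and Clu, Timp1 and Hsd11b1 lower. The 2-array averages have no sign turned, and with 1 array of each pair turned by its dye 40 of 70 named genes changed the sign of their difference.

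**Figure D1:**
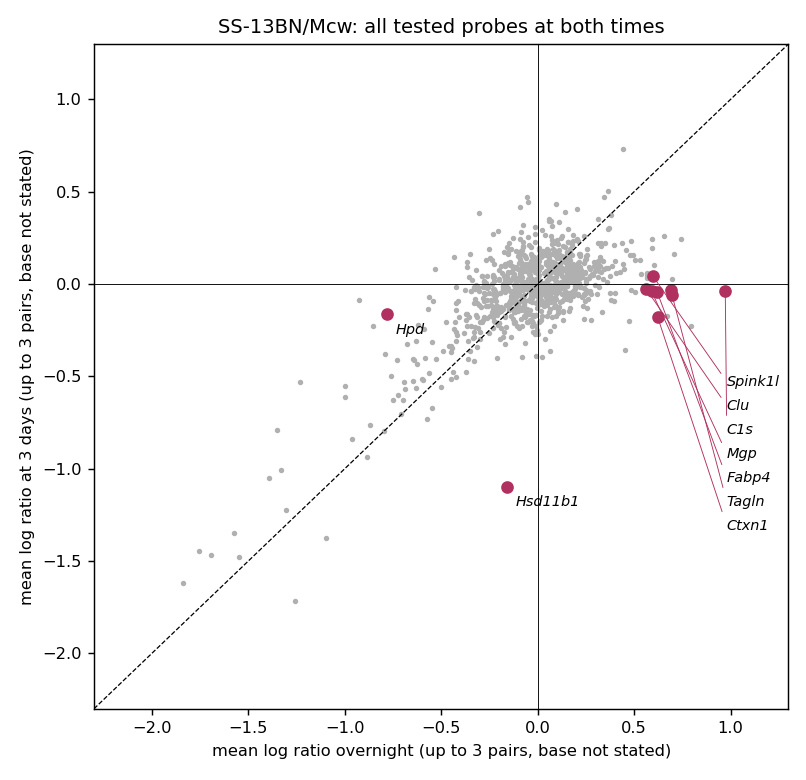
Mean log ratio of each of 897 tested probes in SS-13BN/Mcw overnight (x axis) and at 3 days (y axis), with base not stated, and the dashed line marks equal values. The 10 filled points passed an adjusted p of 0.05 by limma with the replicate block; 9 of them are named, and those right of 0 overnight lie near 0 at 3 days, while Hsd11b1 lies near -1.10 at 3 days.

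Enzymes of tyrosine breakdown were among the genes with higher values at 3 days. Hpd, the dioxygenase that acts on 4-hydroxyphenylpyruvate, had pair values of -0.71, -0.87 and -0.77 overnight in the pairs of low rats 1, 2 and 3, and of -0.15, -0.12 and -0.21 at 3 days. All 3 pairs were higher at 3 days and the groups did not overlap, as the choice of leading genes required. Its difference was 0.62 ± 0.13 (SE, n = 3 pairs a time; limma adjusted p = 0.276), and with the block the adjusted p was 0.0252. Fah, the last enzyme of the same pathway, had values in 2 pairs a time, -0.61 and -1.25 overnight (low rats 1 and 3) and -0.30 and 0.13 at 3 days (low rats 1 and 2). Its difference was 0.84 ± 0.24 (SE, n = 2; limma adjusted p = 0.359), and with the block, which rests on low rat 1 alone, it was 0.30 with an adjusted p of 0.456. Ivd, which acts in leucine breakdown, went from -0.33 to -0.02 on average (limma adjusted p = 0.359). Of 18 genes of amino acid metabolism tested, 15 were higher and 3 lower at 3 days with a median difference of 0.22, against 454 higher and 442 lower and a median of 0.0045 among all 896 genes and unnamed probes. In 5 of the 18 the pair values did not overlap with 3 days higher, which held for 99 (11%) of all genes, and 1 gene, Hpd, passed with the block.

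The sequences upstream of genes described first here are shown for 1 gene on each side: Hpd, the gene that rose with the block, and Serpinh1, a matrix gene with lower values at 3 days. They are the 250 bases before the gene start, 5′ to 3′, from RefSeq (GRCr8), with matches to the searched motifs in capitals, and 21 of 30 genes looked up had an entry.
Hpd (chr12:39041996-39042245, plus strand): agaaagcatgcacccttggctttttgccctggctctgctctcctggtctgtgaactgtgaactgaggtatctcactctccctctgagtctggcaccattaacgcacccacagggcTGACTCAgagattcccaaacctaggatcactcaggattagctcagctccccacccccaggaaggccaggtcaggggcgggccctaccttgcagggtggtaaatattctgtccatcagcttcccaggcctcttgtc
Serpinh1 (chr1:163062977-163063226, minus strand): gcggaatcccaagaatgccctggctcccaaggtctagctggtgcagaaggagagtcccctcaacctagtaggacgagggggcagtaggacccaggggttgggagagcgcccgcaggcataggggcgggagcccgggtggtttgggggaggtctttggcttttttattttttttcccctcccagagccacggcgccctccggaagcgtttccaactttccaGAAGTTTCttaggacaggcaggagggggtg
Both strands were searched for the TATA box (TATAAA), the AP-1 motif (TGACTCA), the E-box (CACGTG), the heat shock unit (GAANNTTC), the CCAAT box and the CArG box. Hpd held the AP-1 motif from -135 to -129 before the start, and 4.05% of 33469 rat promoters of that length held it. Serpinh1 held the heat shock unit from -30 to -23, and 7.23% of promoters held it. These matches describe the letters in the window.

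Glucocorticoid-converting enzymes moved to opposite sides. Hsd11b1, which regenerates active glucocorticoid, had pair values of 0.08, -0.24 and -0.33 overnight and of -0.94, -1.20 and -1.15 at 3 days. Every 3-day pair was lower than every overnight pair, and its mean moved away from 0. The difference was -0.94 ± 0.23 (SE, n = 3; limma adjusted p = 0.276), and the adjusted p was 0.0252 with the block. Hsd11b2, which inactivates glucocorticoid, had values of -0.13, -0.32 and -0.24 overnight and of 0.26, 0.06 and 0.49 at 3 days. All overnight values were negative and all 3-day values positive. The difference was 0.50 ± 0.13 (SE, n = 3; limma adjusted p = 0.276, with the block 0.108). Of 6 genes of the renin-angiotensin and corticosteroid list, 3 were higher and 3 lower with a median difference of 0.07, which lay below 0 with arrays scaled to one spread (-0.05). Sgk1, a kinase induced by aldosterone, was at -0.23, -0.19 and 0.18 overnight and at -0.44, -0.31 and -0.43 at 3 days (limma adjusted p = 0.463).

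Sodium transport genes along the tubule had mostly higher values at 3 days. None passed the threshold with or without the block, except Scnn1a with the block in arrays scaled to one spread (limma adjusted p = 0.0440). Scnn1a, the alpha subunit of the epithelial sodium channel, was at -0.08, -0.01 and -0.16 overnight and at 0.21, 0.26 and 0.38 at 3 days. The groups did not overlap and their signs were opposite, with a difference of 0.37 ± 0.09 (SE, n = 3; limma adjusted p = 0.276, with the block 0.112). Fxyd2, the gamma subunit of the sodium pump, was at -0.04, -0.09 and -0.30 overnight and at 0.16, 0.15 and 0.05 at 3 days (limma adjusted p = 0.361). Slc12a1, the sodium-potassium-chloride cotransporter of the thick ascending limb, was at -0.27, -0.42 and -0.31 overnight and at -0.14, 0.04 and -0.20 at 3 days (limma adjusted p = 0.456). In each of these 3 genes every 3-day pair stood above every overnight pair. Of 6 sodium transport genes, 4 were higher and 2 lower with a median of 0.22. The pair values of 3 did not overlap with 3 days higher (11% of all genes), and those of 1, Sgk1, did not overlap with 3 days lower (11.6% of all genes).

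Markers of tubule segments had negative medians in all overnight pairs and higher ones at 3 days. The median over 17 proximal tubule markers was -0.84, -1.05 and -2.06 in the overnight pairs of low rats 1, 2 and 3, and -0.84, -0.89 and -1.16 at 3 days. The pair of low rat 3 was the lowest at both times. Of these genes 15 were higher and 2 lower at 3 days with a median difference of 0.22, and 1 in each direction did not overlap, a smaller share than among all genes (11% with 3 days higher and 11.6% with 3 days lower). The 1 that did not overlap with 3 days lower was Kap, from -1.26 to -1.71 on average, a difference of -0.46. Mep1b, a subunit of the brush border protease meprin, was at -0.13, -0.11 and -0.56 overnight and at -0.04, 0.34 and 0.09 at 3 days (limma adjusted p = 0.359). Ggt1, the brush border gamma-glutamyltransferase, was at -0.93, -0.95 and -2.17 overnight and at -0.81, -0.21 and -1.35 at 3 days, and its groups overlapped (limma adjusted p = 0.544). All 5 genes of the thick ascending limb and distal tubule were higher at 3 days with a median difference of 0.23, and 2 of them did not overlap, against 11% of all genes with 3 days higher. Of 7 collecting duct genes, 5 were higher and 2 lower with a median of 0.16. In 3 of the 7 the pair values did not overlap with 3 days higher, against the same 11%. They were Scnn1a, Hsd11b2 and Slc4a1, the bicarbonate exchanger shared by red blood cells and acid-secreting collecting duct cells, which was measured in 2 pairs a time. Slc4a1 stood at -0.05 and -0.56 overnight and at 0.21 and 0.55 at 3 days (limma adjusted p = 0.359). Of the 2 red blood cell genes tested, 1 was higher and 1 lower.

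**Figure D2:**
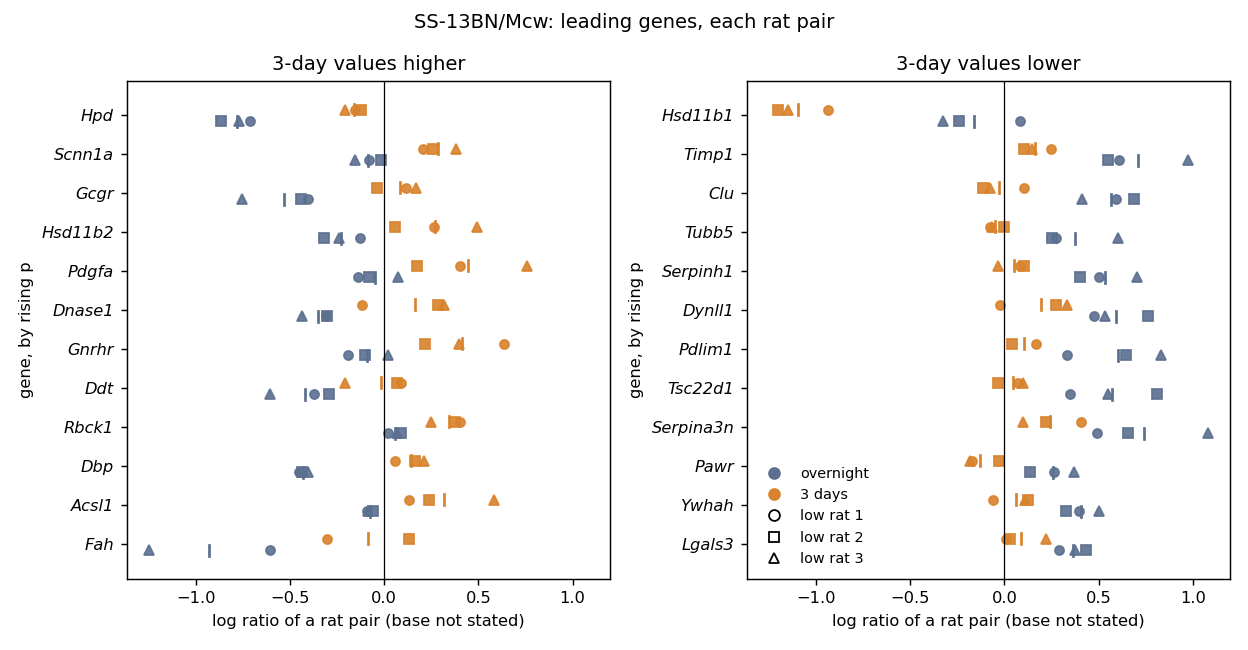
Log ratio of each rat pair (x axis, base not stated) for the 12 genes with the smallest p in each direction among those whose pair values did not overlap, overnight in blue and at 3 days in orange, with the low rat given by the symbol and the mean by a bar. Most overnight values in the left panel are negative and in the right panel positive. The 3-day mean lies nearer to 0 in 17 of the 24 genes, against 62.7% of all 897 probes. It does not in Hsd11b1, with 3-day values from -1.20 to -0.94.

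Genes of extracellular matrix and its processing had lower values at 3 days. Timp1, an inhibitor of matrix metalloproteinases, was at 0.61, 0.55 and 0.97 overnight and at 0.25, 0.10 and 0.14 at 3 days. All 6 values were positive and the groups did not overlap. Its difference was -0.55 ± 0.13 (SE, n = 3; limma adjusted p = 0.276, with the block 0.0869). Serpinh1, the collagen chaperone whose upstream sequence is shown above, was at 0.50, 0.40 and 0.70 overnight and at 0.08, 0.10 and -0.03 at 3 days. Its difference was -0.48 ± 0.14 (SE, n = 3; limma adjusted p = 0.282, with the block 0.0727). Mgp, an inhibitor of calcification made by vascular smooth muscle and cartilage, was at 0.31, 0.65 and 0.81 overnight and at -0.25, -0.06 and 0.19 at 3 days. Within each low rat it was lower at 3 days by a like amount (-0.56, -0.71 and -0.62), and it fell with the block (-0.63 ± 0.09, SE; limma adjusted p = 0.0171), while without it the adjusted p was 0.424. Of 18 genes of the list, 15 were lower and 3 higher with a median of -0.24. In 8 of the 18 the pair values did not overlap with 3 days lower, which held for 104 (11.6%) of all genes. The list's median in the pairs was 0.22, 0.19 and 0.66 overnight and -0.0027, 0.03 and 0.05 at 3 days, so the pair of low rat 3 was the highest overnight.

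Genes of smooth muscle, fibroblasts and other interstitial cells had mostly lower values at 3 days, led by the overnight pair of low rat 3. Tagln, an actin-binding protein of smooth muscle, was at 0.43, 0.63 and 1.03 overnight and at -0.17, 0.07 and -0.08 at 3 days. It fell with the block (-0.76 ± 0.12, SE; limma adjusted p = 0.0218), and without it the adjusted p was 0.427. Pdgfra, the receptor for platelet-derived growth factor of fibroblasts, was at 0.52, 0.18 and 1.31 overnight and at -0.14, -0.24 and -0.13 at 3 days. All overnight values were positive and all 3-day values negative. It did not pass in arrays that were only median-centred (limma adjusted p = 0.431, with the block 0.0828). With the block it passed in arrays scaled to one spread (limma adjusted p = 0.0149) and with quantile normalization (limma adjusted p = 0.0380). Pdgfa, a ligand of that receptor, had values of -0.14, -0.08 and 0.08 overnight and of 0.40, 0.17 and 0.76 at 3 days. Ligand and receptor thus lay on opposite sides in their differences, 0.49 ± 0.13 for Pdgfa (SE, n = 3; limma adjusted p = 0.276) and -0.85 ± 0.39 for Pdgfra (SE, n = 3). Of 8 smooth muscle and fibroblast genes, 7 were lower and 1 higher with a median of -0.14. The 1 higher was Acta2, from 0.04 to 0.11 on average with overlapping pair values. In 2 of the 8 the pair values did not overlap with 3 days lower, against 11.6% of all genes. The list's median in the pairs was 0.03, 0.10 and 0.66 overnight and -0.02, -0.10 and -0.01 at 3 days. The part of a different amount of interstitial cells in the matrix and smooth muscle differences was not tested.

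Fabp4, C1s, Ctxn1 and Spink1l passed only with the block, and all had their highest value in the overnight pair of low rat 3. Fabp4, a fatty acid binding protein of fat cells and capillaries, was at 0.32, 0.39 and 1.15 overnight and at -0.32, -0.18 and 0.37 at 3 days. The groups overlapped, but within each low rat the value fell, by 0.64, 0.56 and 0.78 (block limma adjusted p = 0.0218). C1s, a protease of the classical complement pathway, was at 0.48, 0.61 and 1.83 overnight and at -0.11, -0.24 and 0.24 at 3 days (block limma adjusted p = 0.0477). Ctxn1, which encodes the membrane protein cortexin, was at 0.26, 0.48 and 1.12 overnight and at -0.35, -0.30 and 0.11 at 3 days (block limma adjusted p = 0.0321). Spink1l, named as like a trypsin inhibitor, was at 0.14, 0.49 and 1.15 overnight and at -0.27, 0.08 and 0.33 at 3 days (block limma adjusted p = 0.0477). In each of these genes low rat 3 was also the highest at 3 days. The spread over 745 probes of the pair values was the widest in the pairs of low rat 3 at both times, with an SD of 0.468 overnight and 0.326 at 3 days, against 0.208 to 0.300 in the other 4 pairs. Without low rat 3, as without low rat 2, 0 probes passed with the block (smallest adjusted p 0.0653 and 0.105), and 9 passed without low rat 1.

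**Figure D3:**
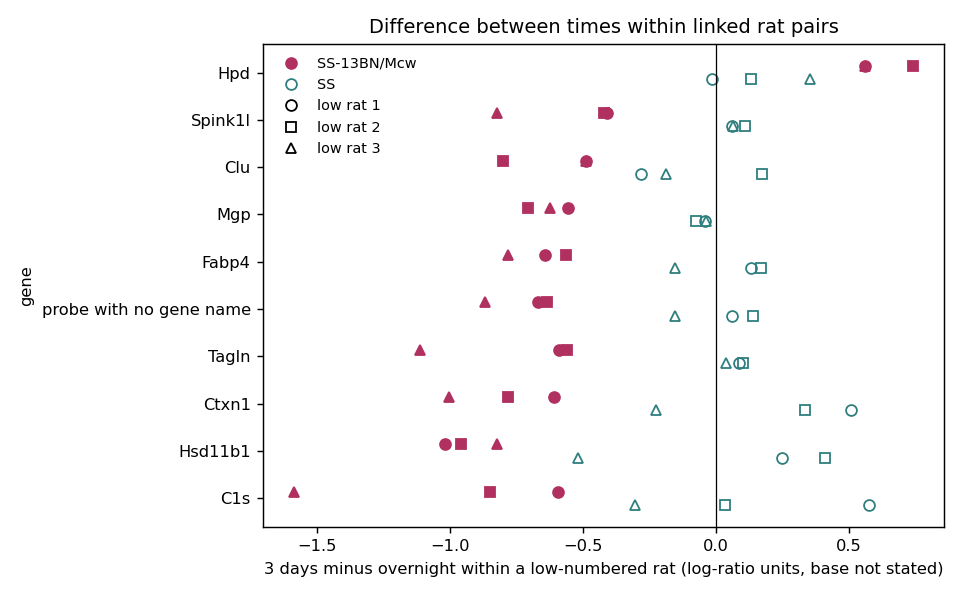
Value at 3 days minus overnight within each low-numbered rat (x axis, log-ratio units, base not stated) for the 10 probes that passed with the replicate block in SS-13BN/Mcw (filled) and the same probes in SS (open). In SS-13BN/Mcw all 3 rats lie on one side of 0 for each probe, and in SS the rats lie nearer to 0, on both sides of it in 7 of the 10 probes. The probes were picked by their SS-13BN/Mcw differences, so the figure is no test of the strains.

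Injury genes had lower values at 3 days, and inflammation genes were divided. Clu, the secreted chaperone clusterin that marks tubule damage, was at 0.59, 0.69 and 0.41 overnight and at 0.10, -0.11 and -0.08 at 3 days. Its groups did not overlap, with a difference of -0.59 ± 0.15 (SE, n = 3; limma adjusted p = 0.276), and it fell with the block (limma adjusted p = 0.0477). Serpina3n, an acute phase protease inhibitor, was at 0.49, 0.66 and 1.08 overnight and at 0.40, 0.22 and 0.10 at 3 days (limma adjusted p = 0.359). Its overnight pair of low rat 3 was the highest and the same rat's 3-day pair the lowest. Lgals3, the galectin of macrophages and injured epithelium, was at 0.29, 0.43 and 0.37 overnight and at 0.01, 0.03 and 0.22 at 3 days (limma adjusted p = 0.359). All 11 genes of the injury and acute phase list were lower at 3 days with a median of -0.22, from -0.59 to -0.07, and 4 did not overlap, against 11.6% of all genes with 3 days lower. Of 5 inflammation and adhesion genes, 3 were lower and 2 higher. Among them Irf1, an interferon-induced transcription factor, was at 0.33, 0.29 and 0.59 overnight and at -0.25, -0.12 and 0.23 at 3 days, and Nfkb1, a subunit of NF-kappaB, was at 0.11, 0.01 and 0.27 overnight and at -0.10, -0.11 and -0.25 at 3 days (limma adjusted p = 0.424 for both).

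Other leading genes came from several classes. Gcgr, the glucagon receptor, was at -0.40, -0.44 and -0.75 overnight and at 0.12, -0.04 and 0.17 at 3 days, a difference of 0.62 ± 0.16 (SE, n = 3; limma adjusted p = 0.276, with the block 0.108). Dbp, a transcription factor with a daily rhythm, was at -0.45, -0.44 and -0.40 overnight and at 0.06, 0.16 and 0.21 at 3 days. Its overnight values lay within a narrow range and the groups did not overlap (difference 0.58 ± 0.18, SE, n = 3; limma adjusted p = 0.359, with the block 0.0727). Dnase1, a secreted nuclease, was at -0.31, -0.30 and -0.43 overnight and at -0.12, 0.29 and 0.32 at 3 days (limma adjusted p = 0.276). Tubb5, a beta tubulin, was at 0.27, 0.25 and 0.60 overnight and at -0.08, -0.00047 and -0.07 at 3 days (limma adjusted p = 0.276). The remaining leading genes with higher values at 3 days were Gnrhr, Ddt, Rbck1 and Acsl1, with differences from 0.28 to 0.51, and those with lower values were Dynll1, Pdlim1, Tsc22d1, Pawr and Ywhah, with differences from -0.52 to -0.35. None of these 9 passed with or without the block in arrays that were only median-centred. With the block, Gnrhr passed with arrays scaled to one spread (limma adjusted p = 0.0235) and with quantile normalization (limma adjusted p = 0.0422). Tsc22d1 passed with the block in scaled arrays (limma adjusted p = 0.0466).

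Mitochondrial and fuel metabolism genes were mostly higher at 3 days, and genes of protein synthesis and folding mostly lower. Of 21 genes of fatty acid oxidation and the peroxisome, 16 were higher and 5 lower with a median of 0.16, and 6 did not overlap with 3 days higher, against 11% of all genes. Echs1, the enoyl-CoA hydratase, was at -0.37, -0.65 and -0.60 overnight and at -0.05, -0.02 and -0.20 at 3 days (limma adjusted p = 0.359). The 1 member of that list that fell with the block was Fabp4. Of 23 respiratory chain and citrate cycle genes, 19 were higher and 4 lower with a median of 0.12, and of 8 glycolysis genes 7 were higher with a median of 0.11. In 4 of the 23 and 2 of the 8 the pair values did not overlap with 3 days higher, against 11% of all genes. In 1 of the 23, Atp5f1d, they did not overlap with 3 days lower. Its difference of -1.02 was the lowest among all genes (limma adjusted p = 0.431). Atp5f1d had no 3-day value in the pair of low rat 3, whose overnight value was 1.54, against 0.50 and 0.34 in low rats 1 and 2. With the block, which rests on low rats 1 and 2, its difference was -0.65 (limma adjusted p = 0.164). Idh3g, a subunit of isocitrate dehydrogenase, went from -0.32 to -0.01 on average (limma adjusted p = 0.407). Of 25 cytosolic ribosomal proteins, 21 were lower and 4 higher with a median of -0.08. Of 10 chaperones 9 were lower (median -0.10), and of 11 proteasome and ubiquitin genes 9 were lower (median -0.08). In these 3 lists 3 of the 25, 1 of the 10 and 1 of the 11 did not overlap with 3 days lower, against 11.6% of all genes. Another 1 of the 11 did not overlap with 3 days higher. All 5 cholesterol synthesis genes were lower with a median of -0.18, among them Cyp51 at 0.48, 0.23 and 0.37 overnight and 0.10, 0.27 and -0.33 at 3 days, and none had pair values that did not overlap. Of the lists of glutathione and of xenobiotic metabolism, 10 of 14 and 11 of 14 genes were higher, and of cytoskeleton genes 10 of 15 were lower. Immediate early genes were split, 4 higher and 7 lower of 11.

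**Figure D4:**
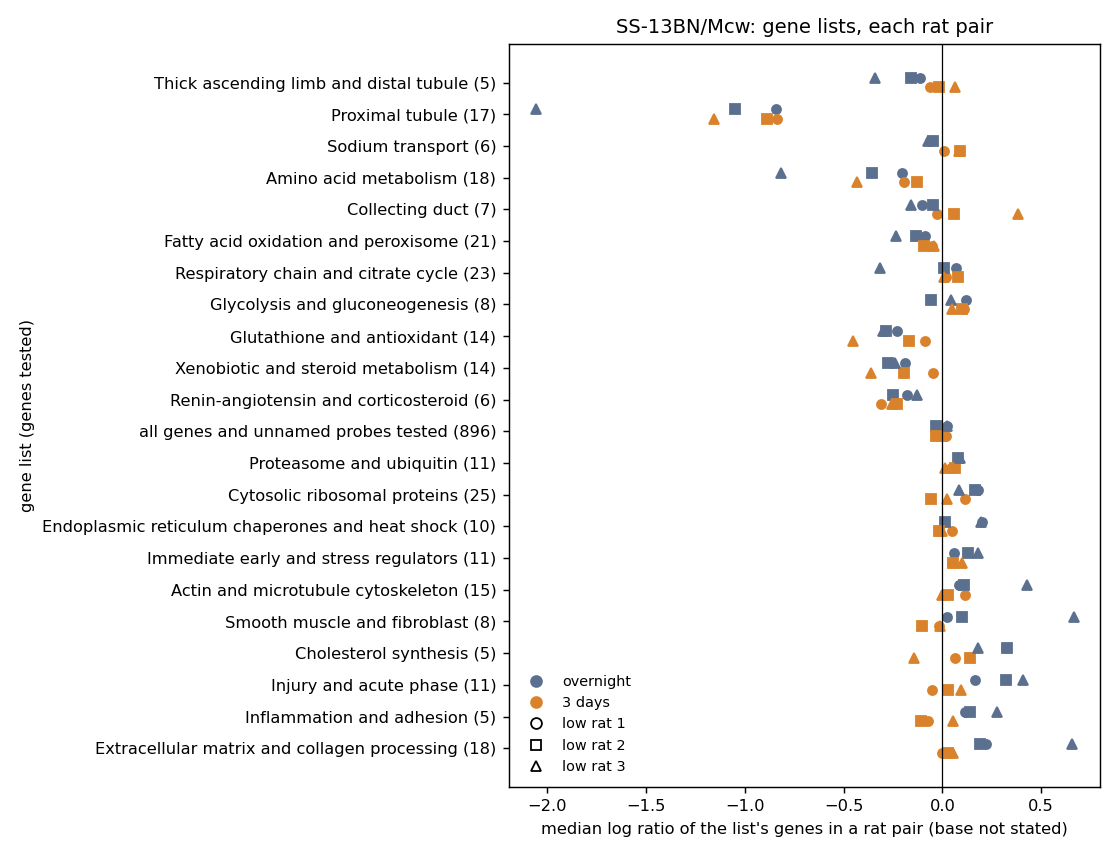
Median log ratio of the tested genes of each list in each rat pair (x axis, base not stated), overnight in blue and at 3 days in orange, with the low rat given by the symbol and the number of genes tested in parentheses. Extracellular matrix, injury and inflammation lists lie on the positive side overnight and near 0 at 3 days, and the overnight pair of low rat 3 lies farthest out for the proximal tubule (-2.06) and smooth muscle (0.66) lists.

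The values as a whole lay nearer to 0 at 3 days. Of 897 probes, 562 (62.7%) had a mean nearer to 0 at 3 days than overnight, and 313 had means of opposite sign. The SD over probes of a pair's values was 0.336 ± 0.118 overnight and 0.258 ± 0.0612 at 3 days (mean ± SD over 3 pairs). It was lower at 3 days within each low rat. By an exact two-sided permutation test the difference between the times was within the spread of the pairs (p = 0.4, with 0.1 the smallest p that 3 against 3 pairs can give), and with the pairs linked the exact p was 0.25, the smallest that 3 linked pairs can give.

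The time difference in SS-13BN/Mcw was also set against that in SS, with the difference between strains tested as an interaction. By limma 0 of 822 probes (0%) passed, the smallest adjusted p was 0.972, and 20 had an unadjusted p below 0.05 (41.1 by chance). With the block 0 passed, with a smallest adjusted p of 0.144. Without the SS 3-day pair of low rat 3, 1 probe passed, Hsd11b1 (interaction -1.32 ± 0.19, SE; limma adjusted p = 0.0140). With any other single pair left out, 0 passed. Hsd11b1 differed by -1.02, -0.96 and -0.83 within the low rats of SS-13BN/Mcw and by 0.25, 0.41 and -0.52 in those of SS. The pair left out was thus from the only SS low rat in which Hsd11b1 fell, as it did in SS-13BN/Mcw. The fit without that pair is therefore not read as a difference between the strains. Mgp differed by -0.04, -0.07 and -0.04 in SS, and Tagln by 0.09, 0.10 and 0.04, all nearer to 0 than in any SS-13BN/Mcw rat. Both genes were picked by their SS-13BN/Mcw differences, so this is no test of the strains. Their interaction with the block did not pass (limma adjusted p = 0.144 for each). Hsd11b2, with 0.39, 0.38 and 0.73 in SS-13BN/Mcw and -0.17, -0.26 and 0.32 in SS, was among the 5 with the smallest interaction p. The others were Hsd11b1, Pdgfa, Tubb5 and Gnrhr, and the interaction was not past the threshold in any of them (limma adjusted p = 0.972 for each). No difference between the strains in the change from overnight to 3 days was thus detected for any single probe.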

How the data were processed

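Kidney total RNA of SS-13BN/Mcw and SS rats was measured on cDNA arrays with 2 channels. The deposited table holds a log ratio per probe and array, a score whose log base, numerator and upstream processing were not given in the sources used here; its arrays had been centred on the mean (largest absolute mean 0.00082). Of 3742 probe identifiers, 1766 had a value; 1426 had 1 gene symbol, 29 several and 311 none, and unnamed probes were tested but not named. Array pairs were averaged unturned, since with the dye mean removed both arrays of a pair correlated positively (r from 0.169 to 0.825 in the 6 SS-13BN/Mcw pairs; before removal from -0.0595 to 0.749). All 12 pairs entered a limma fit with 1 coefficient per group (8 residual degrees of freedom, 4 with the block), moderated by eBayes, two-sided, with Benjamini-Hochberg adjustment. Deviations of same-numbered SS-13BN/Mcw pairs correlated at 0.389, 0.321 and 0.259, and the titles repeat the rat numbers, so the SS-13BN/Mcw pairs were taken as linked. In SS, which is also in the block fit, low rats 1 and 3 correlated at 0.494 and 0.620 and low rat 2 at -0.024. The number after the date-like string in each title was read as a slide number, which the titles do not state. These numbers overlapped between the times in SS-13BN/Mcw but not in SS. The 26 gene lists and the comparison were chosen with earlier results of these data known. Named genes were the 12 per direction with the smallest p among those whose pair values did not overlap, the 3 members of each list of at least 4 genes with the smallest p, and the 5 with the smallest interaction p. The 10 probes past the threshold with the block, 1 of them with no gene name, were added after their values were seen. The fit was tested on simulated data. Alternatives were centring, scaling, turning, filters, slide number, block and left-out pairs. Software was R 4.3.3, limma 3.58.1 and statmod 1.5.0, with Python and matplotlib for figures and promoter searches.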

Additional observations from a re-analysis of the deposited data

Results flagged for a closer look

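In 4 of the 60 named genes with all linked values in both strains, the value at 3 days minus overnight lay on one side of 0 in all 3 low rats of SS-13BN/Mcw and on the other side in all 3 of SS. Most of the 60 were named for their SS-13BN/Mcw values, and the share among all probes was not counted. The count of 4 is therefore not read as a difference between the strains. Pdgfa, a growth factor for fibroblasts, differed by 0.54, 0.26 and 0.68 in SS-13BN/Mcw and by -0.19, -0.14 and -0.13 in SS, an interaction of 0.65. Tagln, an actin-binding protein of smooth muscle, differed by -0.59, -0.56 and -1.12 against 0.09, 0.10 and 0.04, an interaction of -0.83. Spink1l differed by -0.41, -0.42 and -0.82 against 0.06, 0.11 and 0.07, an interaction of -0.63. Hk1, a hexokinase of glycolysis, differed by 0.07, 0.28 and 0.04 against -0.0038, -0.04 and -0.02, an interaction of 0.15. The interaction test of limma did not pass for any of the 4 (adjusted p = 0.972 for each; with the replicate block 0.195 for Pdgfa, 0.144 for Tagln, 0.211 for Spink1l and 0.826 for Hk1).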

How the results depend on the processing

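In the comparison of times without a block, the count of probes past an adjusted p of 0.05 in limma was 0 under 8 other settings and with each pair left out in turn (0 to 0), 8 in the array-level fit, 10 with the replicate block, and 1 in a fit of the 6 SS-13BN/Mcw pairs with a replicate block, where Hsd11b1 was the probe called (adjusted p = 0.0420). The same low rats appear in the titles of both times and the deviations of linked pairs correlated positively in all 3 low rats of SS-13BN/Mcw, though not in low rat 2 of SS, so the block is read as a pairing in SS-13BN/Mcw. The interaction count ran from 0 to 1 with a pair left out. Alternatives to the block fit were chosen after seeing the data: its count of 10 became 32 with arrays scaled to one spread, 22 with quantile normalization, 1 in the 6 SS-13BN/Mcw pairs alone, 0 with slide number as a covariate, and from 0 to 9 with both pairs of a low rat left out. All 10 were among the 32, the 22 and the 12 called where all 3 pairs of each group were required, 8 were among those of the values as deposited, and 6 among the 9 called without low rat 1. The cause of these changes was not tested.

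With arrays turned by dye, 40 of 70 named genes changed the sign of their difference, to negative in Sult1a1 -0.19, Mep1b -0.18, Dbp -0.15, Ivd -0.14, Echs1 -0.14, Ldhb -0.12, Cox8a -0.11, Idh3g -0.11, Hk1 -0.11, Aldoa -0.091, Gadd45a -0.079, Hpd -0.062, Gcgr -0.055, Dnase1 -0.054, Gpx4 -0.048, Slc12a1 -0.035, Acsl1 -0.032, Hsd11b2 -0.026, Gatm -0.025, Pdgfa -0.012, and to positive in Rpl30 0.0016, Tmsb10 0.0033, Ctxn1 0.0041, Spink1l 0.0086, Timp1 0.0091, Tagln 0.011, Pdgfra 0.021, Atp5f1d 0.035, Sgk1 0.038, Pdia6 0.041, Rps6 0.046, Lgals3 0.051, Cyp51 0.052, C1s 0.053, Il6r 0.062, Tubb5 0.10, Sqle 0.11, St13 0.14, Serpinh1 0.14, Pdlim1 0.25. The list medians that turning moved were extracellular matrix and collagen processing -0.0099, thick ascending limb and distal tubule -0.035, injury and acute phase -0.013, inflammation and adhesion -0.057, immediate early and stress regulators -0.023, sodium transport 0.027, renin-angiotensin and corticosteroid -0.025, fatty acid oxidation and peroxisome -0.011, cholesterol synthesis 0.052, amino acid metabolism -0.041, glycolysis and gluconeogenesis -0.096, cytosolic ribosomal proteins 0.036, endoplasmic reticulum chaperones and heat shock -0.0053, proteasome and ubiquitin -0.0010, glutathione and antioxidant -0.043. Scaling moved renin-angiotensin and corticosteroid -0.052, fatty acid oxidation and peroxisome 0.087. Quantile normalization moved renin-angiotensin and corticosteroid -0.019, fatty acid oxidation and peroxisome 0.096. Taking pair values also from 1 orientation moved immediate early and stress regulators -0.061. With a pair left out the medians of the lists that moved ran as follows: cholesterol synthesis from -0.32 to -0.18, fatty acid oxidation and peroxisome from 0.054 to 0.19, glycolysis and gluconeogenesis from 0.032 to 0.16, immediate early and stress regulators from -0.18 to -0.0042, inflammation and adhesion from -0.28 to -0.13, proteasome and ubiquitin from -0.11 to -0.075, renin-angiotensin and corticosteroid from -0.059 to 0.083, sodium transport from 0.15 to 0.24. Every named gene kept its sign with values as deposited, scaled or quantile normalized, and with slide number as a covariate. The precision is limited by the number of arrays, and signal over background was not analysed here.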
